A study of Mus musculus with 6 samples.

Results

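Transcripts of 10 enzymes that generate NADPH, or that belong to its main routes, were examined in mouse liver. They were taken by gene symbol, and all 10 were present among the 24411 gene symbols of the deposited table. G6pdx, H6pd and Pgd encode the dehydrogenases of the oxidative pentose phosphate pathway, and Rpia, Tkt and Taldo1 encode enzymes of its non-oxidative part. Me1 encodes cytosolic malic enzyme, Idh1 cytosolic isocitrate dehydrogenase, and Aldh1l1 and Mthfd1 the cytosolic folate enzymes that can reduce NADP.

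NADPH carries the electrons that reduce oxidized glutathione and thioredoxin, and it drives fatty acid and sterol synthesis. Cells regenerate it when glucose 6-phosphate, malate, isocitrate or a folate-bound carbon unit is oxidized. NRF2, the transcription factor that KEAP1 holds in check, is known to activate several of these enzyme genes, and p62 competes for KEAP1 when the serine in its KEAP1-interacting region is phosphorylated. In liver, malic enzyme and glucose 6-phosphate dehydrogenase are also known to follow the supply of carbohydrate.

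RNA-seq was performed on livers at postnatal day 19 from 3 p62+/+ mice and 3 p62S351E/+ mice. The p62S351E/+ mice have 1 allele of Sqstm1, the gene for p62, in which the serine is replaced by a phosphomimetic glutamate, next to a wild-type allele, and the p62+/+ mice have wild-type alleles only. The knock-in was made by prime editing in a C57BL/6N-derived embryonic stem cell line, and the mutant mice descend from 1 male chimera through in vitro fertilization. The authors report severe growth retardation of these mutants at younger ages, with low blood glucose and other serum signs of malnutrition and dehydration. The comparison asks whether a single phosphomimetic allele is accompanied by other levels of these transcripts. Genotype and nutritional state cannot be told apart in it, and the part of nutrition was not tested.

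The authors' estimated counts summed to between 8696712 and 10341622 per mouse, but ribosomal and related sequences (Rn45s, Lars2 and Mir6236) took between 96.7% and 98.7% of them. Between 134911 and 315436 counts were left for all other genes, and the 10 enzymes together had between 394 and 753 counts per mouse. The hepatocyte markers were present in every library, with 10 of 10 markers above 0. Brain markers summed to between 2094 and 2398 counts in the p62+/+ mice, to 29 and 10 counts in p62S351E/+ mice 1 and 2 and to 2246 counts in p62S351E/+ mouse 3. Of the 10 brain markers, 7 were at 0 in p62S351E/+ mouse 1 and 4 were at 0 in p62S351E/+ mouse 2, while 1 was at 0 in mouse 3. Summed macrophage markers were higher in the mutants, with 150.4, 149.9 and 163 normalized counts against 100.1 to 123. This sum did not stand for all its genes, since Marco (22.9, 12.6 and 17.0 against at most 2.59) was higher in every mutant, Lyz2 (61.8 against at most 25.4) only in mouse 3, and the Kupffer cell marker Clec4f was lower (11.4, 16.4 and 16.3 against 18.1 to 24.1). Summed erythroid markers were lower, with 133, 116 and 60.1 against 137 to 197. Hba-a1 and Hba-a2 made up most of this sum. Hbb-bt (24.4, 10.3 and 3.54 against 5.50 to 15.6) and Alas2 (3.81, 15.1 and 4.65 against 4.66 to 8.83) had no common direction in the mutants. Adipocyte markers had at most 1 count per mouse, and markers of dividing cells overlapped. The part of macrophages and erythroid cells in the values below was not tested. Values of p62S351E/+ mouse 3, the mutant library whose brain-marker counts lay within the p62+/+ range, are given for each of the 10 enzymes. Sqstm1 itself was not called different between the genotypes (log2 fold change 0.30 with a standard error of 0.20, adjusted p = 0.499, edgeR). It had 104.7, 97.0 and 89.9 normalized counts in the mutants against 73.0 to 86.4. Of all genes tested, 12% were likewise higher without overlap. The counts of Sqstm1 do not separate the alleles. By real-time PCR at a younger age, the authors report a much higher p62 transcript level in mutant liver. Nfe2l2, the gene for NRF2, and Keap1 were not called either, with log2 fold changes of -0.63 and 0.76 (adjusted p = 0.474 and 0.538, edgeR).

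Of the 10 enzyme genes, 8 had enough counts to be tested, and G6pdx and Rpia did not. None of the 8 was called higher or lower by edgeR's quasi-likelihood test, where a call needed an adjusted p under 0.05 together with a log2 fold change beyond 1 in either direction. Among all 5945 genes tested, 0.841% were called higher and 0.0841% lower. At an unadjusted p below 0.05, 2 members (Aldh1l1 and H6pd) were higher and 1 (Taldo1) was lower, against 9.02% and 5.55% of all genes. DESeq2, which the authors used with these thresholds, called 1 member higher (Aldh1l1, adjusted p = 0.0411 in its default test). Limma-voom called 2 (Aldh1l1 and H6pd). The fitted log2 fold changes lay between -0.84 for Taldo1 and 1.31 for Aldh1l1, with a median of 0.40 against -0.03 for all genes tested.

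Normalized counts are estimated counts after scaling each library by its TMM-adjusted size, with the geometric mean of the libraries as the unit. On this scale 1 count was worth 1.90 in p62S351E/+ mouse 1, the shallowest library, and between 0.775 and 1.26 in the other mice. The values did not overlap between the genotypes for 5 members. Aldh1l1, H6pd, Tkt and Mthfd1 were higher in every p62S351E/+ mouse than in every p62+/+ mouse, and Taldo1 was lower. Over all genes tested, 12% had such an order with the mutants higher and 14.7% with the mutants lower. In bulk liver, a smaller share of cells of a type and less RNA per cell cannot be told apart.

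**Figure D1:**
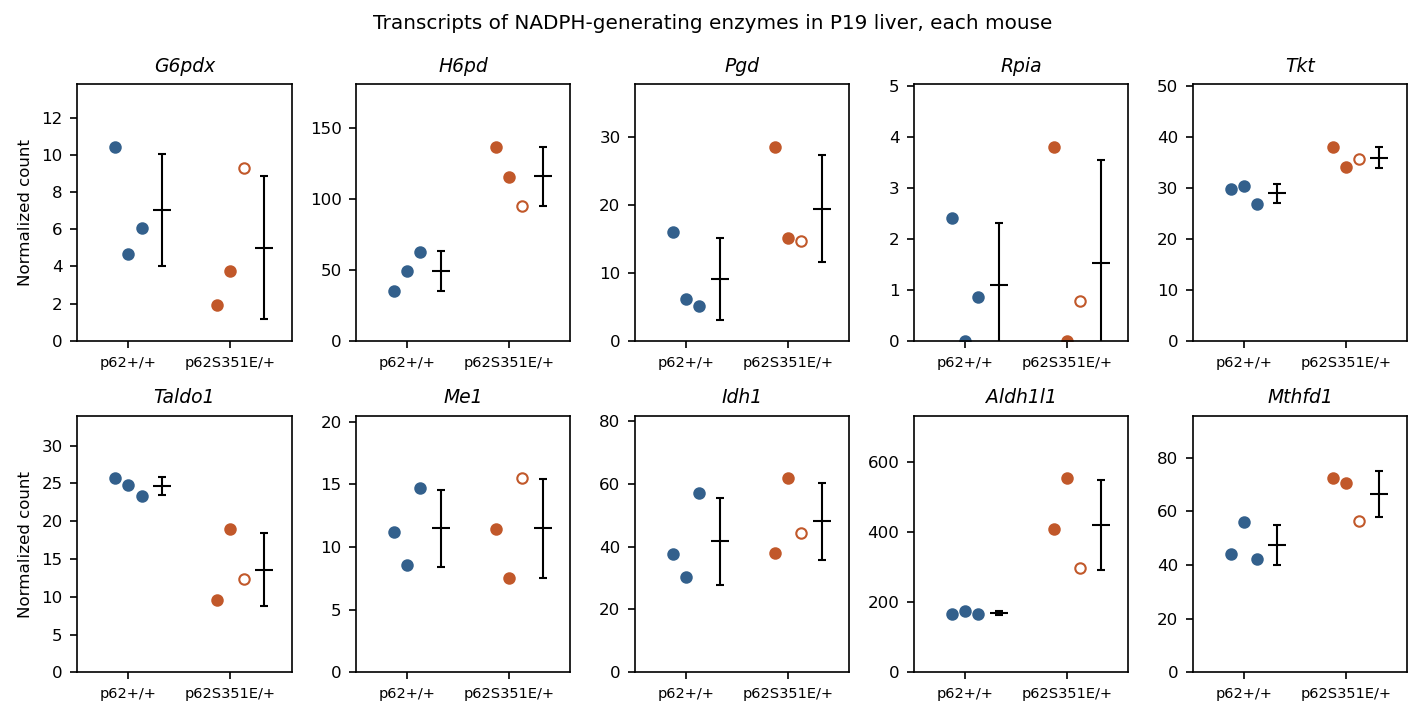
Normalized counts (y axis, linear, from 0) of the 10 enzyme genes in each of 3 p62+/+ mice (blue) and 3 p62S351E/+ mice (orange); the open circle is p62S351E/+ mouse 3, and the black bar with whiskers is the mean with its SD. Aldh1l1, H6pd, Tkt and Mthfd1 have every mutant above every p62+/+ mouse, Taldo1 has every mutant below, and the groups overlap in the other panels.

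The folate route contained the most abundant member. Aldh1l1 encodes 10-formyltetrahydrofolate dehydrogenase, which releases carbon dioxide from formyl-folate and yields NADPH. The gene (ENSMUSG00000030088.15) lies on the plus strand of chromosome 6 of GRCm38, the build of mm10, from 90486427 to 90600203. In p62+/+ mice 1, 2 and 3 Aldh1l1 had 167, 175 and 168 normalized counts, and p62S351E/+ mice 1, 2 and 3 had 409, 554 and 299. The 3 p62+/+ mice were almost alike, and the mutants were all higher but spread over a wide range. The mean was 170.0 ± 4.74 in p62+/+ mice and 421 ± 128 in the mutants (SD, n = 3 each), and the log2 fold change of 1.31 had a 95% interval from 0.71 to 1.90. The difference did not pass the threshold (standard error 0.26, adjusted p = 0.0744, edgeR). Over the alternatives its adjusted p ran from 0.00029 without p62S351E/+ mouse 3 to 0.43 with library size as the only scaling, both edgeR. It was called in 6 of 22 alternatives. Without mouse 3 the remaining mutants had 29 and 10 brain-marker counts, against 2094 to 2398 in the p62+/+ mice. Genotype and brain transcripts cannot be told apart in that fit.

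Aldh1l1 is also widely used as an astrocyte marker. The 7 other astrocyte markers summed to between 472 and 593 counts in the p62+/+ mice, to 562 counts in p62S351E/+ mouse 3, and to 47 and 29 counts in p62S351E/+ mice 1 and 2. The mutants with the fewest astrocyte counts had the highest values of Aldh1l1. In p62S351E/+ mouse 3 alone, Aldh1l1 was 0.81 above the p62+/+ mean on the log2 scale. With the brain markers as a covariate the log2 fold change was 0.78 (adjusted p = 0.219, edgeR). With Xist, the transcript that silences an X chromosome in females, as a covariate it was 0.97 (adjusted p = 0.183, edgeR). Mutant mice 1 and 2, with few brain-marker counts, also had 1 and 0 counts of Xist, so the 2 traits cannot be told apart among the mutants. The hepatocyte markers summed to between 12343 and 13581 normalized counts in p62+/+ mice, and p62S351E/+ mice 1, 2 and 3 had 19070, 29211 and 13950, so the sum was higher as well. Alb made up the largest share of this sum. Alb, Apob, Cps1 and Hnf4a were above the p62+/+ range in every mutant, and Fgb and Tat in mutant mice 1 and 2 only. Ttr, Apoa1 and Serpina1c were below the p62+/+ range in mutant mice 1 and 3 and above it in mouse 2. Cyp2e1 was below the range in mutant mouse 1, above it in mouse 2 and within it in mouse 3. Per 1000 hepatocyte-marker counts of the same library, a measure chosen after the values were seen and free of scaling between libraries, Aldh1l1 had values of 12.3, 14.2 and 12.8 in the p62+/+ mice, and the p62S351E/+ mice had 21.5, 18.98 and 21.4. The groups did not overlap on this measure either. The exons of Aldh1l1 share 499 bases with the antisense gene Gm15756 and 105 bases with Gm45901. Whether counting used strand is not given in the sources used here, so reads from these stretches cannot be told apart.

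Mthfd1 encodes the trifunctional cytosolic enzyme whose dehydrogenase activity converts methylene-folate to methenyl-folate with NADP. It lies on chromosome 12 from 76255298 to 76319803 (plus strand). The p62+/+ mice had 44.1, 55.9 and 42.3 normalized counts of Mthfd1, against 72.4, 70.6 and 56.5 in the p62S351E/+ mice. The lowest mutant, mouse 3, was barely above the highest p62+/+ mouse. The log2 fold change was 0.48 with a 95% interval from -0.02 to 0.99 (standard error 0.22, adjusted p = 0.357, edgeR). Per 1000 hepatocyte-marker counts the groups overlapped, from 3.24 to 4.53 counts in the p62+/+ mice and from 2.42 to 4.05 counts in the p62S351E/+ mice.

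In the oxidative pentose phosphate pathway, H6pd had the larger fitted difference, and G6pdx could not be tested. H6pd encodes the hexose-6-phosphate dehydrogenase of the endoplasmic reticulum lumen, which supplies NADPH there, and lies on the minus strand of chromosome 4 from 149979475 to 150009023. For H6pd, normalized counts of 35.3, 49.7 and 63.0 were found in the p62+/+ mice, and of 137, 116 and 95.3 in the p62S351E/+ mice. All mutants lay above the p62+/+ range, mouse 3 included. The mean was 49.3 ± 13.9 against 116 ± 20.9 (SD, n = 3 each), the log2 fold change was 1.23 and its 95% interval ran from 0.61 to 1.85 (standard error 0.27, adjusted p = 0.0957, edgeR). It was called by limma-voom (adjusted p = 0.00702) and by edgeR without p62S351E/+ mouse 3 (adjusted p = 0.00264). Without mouse 3, genotype cannot be told apart from brain transcripts. H6pd was called in none of the other 20 alternatives, and over all alternatives its adjusted p reached 0.475. Per 1000 hepatocyte-marker counts, H6pd had values of 2.60, 4.03 and 4.82 in the p62+/+ mice, and the p62S351E/+ mice had 7.19, 3.97 and 6.83, so that mouse 2 lay within the p62+/+ range.

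G6pdx, the X-linked gene for the cytosolic glucose 6-phosphate dehydrogenase that starts the pathway, was too low to test. It lies on the minus strand of chromosome X from 74409483 to 74429194. The p62+/+ mice had 13, 6 and 7 raw counts and the p62S351E/+ mice 1, 3 and 12, or 10.4, 4.66 and 6.05 against 1.90, 3.78 and 9.30 normalized counts. The groups overlapped, with p62S351E/+ mouse 3 near the top of the p62+/+ range. The total of 16 counts in the mutants against 26 gave a ratio of 0.871 per effective library size, with an exact 95% interval from 0.436 to 1.69 that covers counting error only, and a difference within these bounds was not detectable at this depth. Without p62S351E/+ mice 1 and 2, G6pdx passed the filter with a log2 fold change of 0.41 (adjusted p = 0.901, edgeR), whereas with all mice and no filter it was -0.35 (adjusted p = 0.826). Xist, the transcript that silences an X chromosome in females, had 1 and 0 counts in p62S351E/+ mice 1 and 2, the mice lowest in G6pdx. It had 70.8 counts in p62+/+ mouse 1, the mouse highest in G6pdx, and between 1071 and 1537 in the other mice. The labels give no sex, and the part of Xist in the values of G6pdx was not tested. G6pdx shares 418 exonic bases with Ikbkg on the other strand, and its retrogene copy G6pd2 had 1 count in all libraries together.

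Pgd encodes 6-phosphogluconate dehydrogenase, the enzyme after G6pdx and the lactonase, on the minus strand of chromosome 4 from 149149991 to 149166771. In p62+/+ mice 1, 2 and 3 Pgd had 16.1, 6.21 and 5.18 normalized counts, and p62S351E/+ mice 1, 2 and 3 had 28.6, 15.1 and 14.7. The groups overlapped because p62+/+ mouse 1 was above p62S351E/+ mice 2 and 3. With 6 to 20 raw counts per mouse the estimate was loose, at a log2 fold change of 1.05 with a 95% interval from -0.09 to 2.18 (standard error 0.49, adjusted p = 0.366, edgeR). Pgd was called in none of its 21 alternatives. Its log2 fold change was 1.73 without p62+/+ mouse 1, 0.70 without p62S351E/+ mouse 1, 0.67 with Xist as a covariate and 0.27 with library size only.

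In the non-oxidative part, Taldo1 and Tkt lay on opposite sides of 0. Taldo1 encodes transaldolase, which moves 3-carbon units between sugar phosphates, on the plus strand of chromosome 7 from 141392199 to 141402968. The p62+/+ mice had 25.7, 24.8 and 23.3 normalized counts of Taldo1, against 9.52, 18.9 and 12.4 in the p62S351E/+ mice. The p62+/+ mice were close to each other and every mutant was lower, including mouse 3 with a log2 value of -0.99 against the p62+/+ mean. The fitted log2 fold change was -0.84 with a 95% interval from -1.54 to -0.14 (standard error 0.31, adjusted p = 0.283, edgeR), and no alternative called it (lowest adjusted p 0.153, without p62S351E/+ mouse 3; highest 0.835). Per 1000 hepatocyte-marker counts, Taldo1 had values of 1.89, 2.01 and 1.78 in the p62+/+ mice, and the p62S351E/+ mice had 0.499, 0.647 and 0.888, again all lower. These mutant values rest on 5, 15 and 16 raw counts.

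Tkt encodes transketolase, the thiamine-dependent enzyme that moves 2-carbon units, and lies on the plus strand of chromosome 14 from 30548359 to 30574720. For Tkt, normalized counts of 29.7, 30.3 and 26.8 were found in the p62+/+ mice, and of 38.1, 34.0 and 35.6 in the p62S351E/+ mice. The groups did not overlap, but the distance between them was small. Per 1000 hepatocyte-marker counts they overlapped, with 2.19, 2.45 and 2.05 in the p62+/+ mice against 1.997, 1.16 and 2.55 in the mutants. The log2 fold change was 0.31 with a 95% interval from -0.18 to 0.79 (standard error 0.21, adjusted p = 0.511, edgeR), and it was -0.35 with library size as the only scaling. Rpia, the gene for ribose-5-phosphate isomerase on chromosome 6 from 70765720 to 70792232, was counted 3, 0 and 1 times in the p62+/+ mice, against 2, 0 and 1 in the p62S351E/+ mice. At this depth no difference of Rpia between the genotypes was detectable.

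Of the 8 tested members, the 2 cytosolic enzymes outside these pathways had the smallest differences with TMM scaling, though not with library size only, which gave -0.55 for Me1 and -0.44 for Idh1. Me1, which oxidizes malate to pyruvate, lies on the minus strand of chromosome 9 from 86581371 to 86695953. In p62+/+ mice 1, 2 and 3 Me1 had 11.2, 8.54 and 14.7 normalized counts, and p62S351E/+ mice 1, 2 and 3 had 11.4, 7.56 and 15.5. The ranges nearly coincided, and the log2 fold change of 0.02 (adjusted p = 0.978 with a standard error of 0.39, edgeR) changed sign in 8 of 21 alternatives. Its 95% interval, from -0.86 to 0.91, still holds differences of almost 1 log2 unit in either direction. Idh1, which oxidizes isocitrate in the cytosol and peroxisome, lies on the minus strand of chromosome 1 from 65158616 to 65186500. The p62+/+ mice had 37.7, 30.3 and 57.0 normalized counts of Idh1, against 38.1, 61.7 and 44.2 in the p62S351E/+ mice. The groups overlapped over most of their range, with a log2 fold change of 0.21 and a 95% interval from -0.48 to 0.89 (standard error 0.30, adjusted p = 0.746, edgeR).

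**Figure D2:**
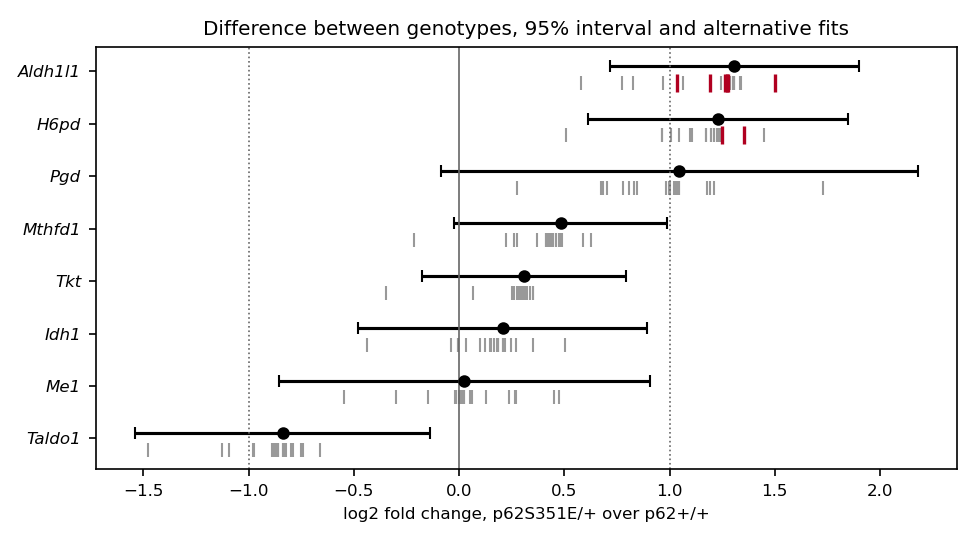
Log2 fold change of p62S351E/+ over p62+/+ mice (x axis) for the 8 tested enzyme genes (rows). Black points with bars are the edgeR estimate and its 95% interval, short ticks below them are the estimates of the alternatives, red where the gene was called, and dotted lines mark a log2 fold change of 1 in either direction. The intervals of Aldh1l1, H6pd and Taldo1 do not include 0, and red ticks appear only for Aldh1l1 (6 of 22) and H6pd (2 of 22).

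The core of the antioxidant response element, to which NRF2 binds with small MAF proteins, can be written as TGACNNNGC. These letters were searched on both strands of the RefSeq windows of 300 bases around annotated starts (GRCm38.p6, 250 bases before and 50 after). The 10 genes had 13 windows, of which 3 held the letters (23.1%), against 12.4% of all 32851 windows. The 3 matches belong to Me1 and Pgd, which were tested and not called, and to G6pdx, which was not tested. All 3 are shown on the strand of each gene with the matched letters in capitals.
Me1: gatgccgccgTGACTCAGCgcttctcgcgg
G6pdx: aggcgggtcaGCTCAGTCAaagcacacgcc
Pgd: atttcagagcTGACATTGCactgatcggac
The Me1 stretch is chr9:86695901-86695930, and its match runs from base -6 to base 3 relative to the RefSeq start. The G6pdx stretch is chrX:74428918-74428947, with the match on the opposite strand from base -57 to -49. The Pgd stretch is chr4:149166060-149166089, with the match from base 4 to base 12 of the second of its annotated starts. A match describes letters only, and no match in the windows of the other 7 genes says only that these letters are absent there.

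Levels of different genes were compared per kb of exon, with lengths from GENCODE M21, since the authors' annotation is not given in the sources used here. In p62+/+ mice, Aldh1l1 had 37.6 ± 1.049 normalized counts per kb (SD, n = 3), above all other members in every mouse. Idh1 (15.04 ± 4.98), Taldo1 (11.3 ± 0.552), Mthfd1 (10.7 ± 1.66) and H6pd (9.42 ± 2.65) followed, and each of these neighbours overlapped the next in range. Tkt (3.93 ± 0.255), Me1 (2.98 ± 0.80), G6pdx (2.29 ± 0.979) and Pgd (1.42 ± 0.931) formed a lower group, again with overlapping neighbours, and Rpia (0.203 ± 0.228) was lowest. In p62S351E/+ mice H6pd was second in this order, with 22.2 ± 3.99 normalized counts per kb and a range that overlapped that of Idh1, and Taldo1 came after Mthfd1, with 6.27 ± 2.21. The order of the p62+/+ means was the same with the length of the longest transcript in place of the merged exons, while in the p62S351E/+ mice Tkt then stood before Taldo1.

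**Figure D3:**
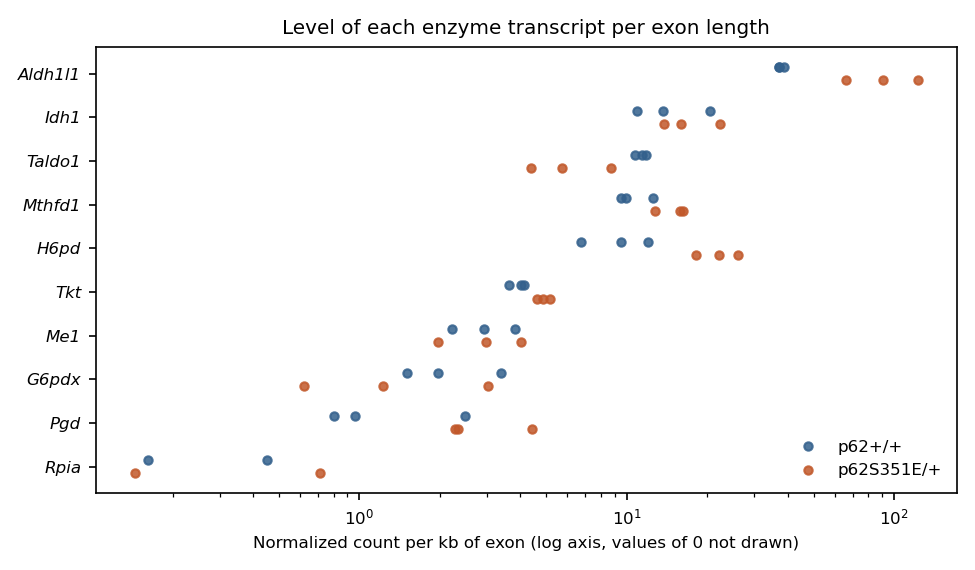
Normalized counts per kb of merged exon (x axis, log scale) of the 10 enzyme genes (rows, in the order of the p62+/+ mean), with 1 point per mouse, p62+/+ in blue and p62S351E/+ in orange. Aldh1l1 is highest in both genotypes, at 37.6 and 93.2 on average, and Rpia is lowest.

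Other genes of the same routes were examined beside them. Of 27 further genes that make NADP, NADPH or the folate and pentose intermediates, 11 had enough counts and none was called by edgeR in either direction. At an unadjusted p below 0.05, 4 were higher and 0 lower, against 9.02% and 5.55% of all genes. DESeq2 called 0 of them, limma-voom called 1 higher (Nnt), and edgeR without p62S351E/+ mouse 3 called 3 higher (Ftcd, Nnt and Shmt2). Their median log2 fold change was 0.41. Nnt, the mitochondrial transhydrogenase gene, had 17.7, 19.4 and 13.8 normalized counts in the p62+/+ mice, and the p62S351E/+ mice had 40.0, 42.8 and 31.0, all of them higher. The difference, a log2 fold change of 1.149, was not called (adjusted p = 0.103, edgeR). Idh2, the mitochondrial counterpart of Idh1, had a log2 fold change of 1.14 (adjusted p = 0.222, edgeR), and Ftcd, a folate enzyme of histidine breakdown, one of 0.93 (adjusted p = 0.209, edgeR). Of 14 genes that supply malate, citrate or isocitrate, all were tested and none was called by edgeR, with a median of -0.05. At an unadjusted p below 0.05, 3 were higher and 0 lower, against the same 9.02% and 5.55% of all genes. DESeq2 and limma-voom called 0 of these 14 as well, and edgeR without p62S351E/+ mouse 3 called 2 higher (Pcx and Slc25a10). The 3 with the lowest adjusted p were Pcx, the pyruvate carboxylase gene, with a log2 fold change of 0.94 (adjusted p = 0.122, edgeR), Aco1 (0.71, adjusted p = 0.241) and Slc25a10 (0.96, adjusted p = 0.316).

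Calls were made among genes on the side that spends NADPH. Of 14 reductases that draw on NADPH, 9 were tested and 4 were called higher, against 0.841% of all genes. Without p62+/+ mouse 1 or mouse 2 the number was 2 (Cbr1 and Cbr3), and without p62S351E/+ mouse 3 it was 6. Cbr1 was called in every alternative. Among the fits with 1 mouse left out, Gsr lost its call without any of the p62+/+ mice or without p62S351E/+ mouse 1, and Blvrb without any of the p62+/+ mice. Both also lost it with library size only and at an adjusted p below 0.01, and a minimum of 10 counts in every library left Gsr out of the test. Gsr, the reductase that recycles oxidized glutathione, had 8.03, 6.21 and 5.18 normalized counts in the p62+/+ mice, and the p62S351E/+ mice had 34.3, 26.5 and 31.8. It rose by 2.23 on the log2 scale (standard error 0.30, adjusted p = 0.0146, edgeR). Blvrb, biliverdin reductase B, rose by 2.27 (standard error 0.29, adjusted p = 0.0114, edgeR), with 10.4 to 14.0 normalized counts in the p62+/+ mice and 40.3 to 68.6 in the p62S351E/+ mice. The others were the carbonyl reductase genes Cbr1, with a log2 fold change of 3.64 (adjusted p = 0.000457, edgeR), and Cbr3, with 1, 1 and 0 raw counts in the p62+/+ mice, against 26, 39 and 58 in the p62S351E/+ mice. Nqo1, the quinone reductase gene, had 1, 2 and 7 raw counts against 36, 33 and 29. Its log2 fold change of 3.93 was not called by edgeR (adjusted p = 0.067). DESeq2 called Nqo1 higher in either setting, as did edgeR's legacy method and edgeR with no filter. EdgeR also called it with Rn45s, Lars2 and Mir6236 left out, without p62+/+ mouse 3 and without p62S351E/+ mouse 3. Limma-voom, the other scalings, the covariates and the replicate block did not call Nqo1. Txnrd1, the cytosolic thioredoxin reductase (log2 fold change 1.17, adjusted p = 0.101), was not called by edgeR. It was called by limma-voom and without p62S351E/+ mouse 3. Por, the electron donor of microsomal P450s (0.68, adjusted p = 0.234), was not called by edgeR. Of 14 lipid synthesis genes, 12 were tested, and 6 were lower at an unadjusted p below 0.05, against 5.55% of all genes. Of the 12, 1 was called lower, against 0.0841% of all genes. It was Thrsp, a gene known to follow carbohydrate-driven lipogenesis, which had 25.7, 24.8 and 24.2 normalized counts in the p62+/+ mice, and the p62S351E/+ mice had 3.81, 6.30 and 6.20. Thrsp fell by 2.13 on the log2 scale (standard error 0.31, adjusted p = 0.0205, edgeR). It was not called by DESeq2's default test or limma-voom, with library size only, at an adjusted p below 0.01 or with the replicate block. The fits with the Xist or brain-marker covariate did not call it either. A minimum of 10 counts in every library left it out of the test. Nor was it called with any single mouse left out other than p62S351E/+ mouse 3. Leaving out that mouse gave 4 lower genes of this list (Acly, Fasn, Scd1 and Thrsp). Acaca, Scd1 and Fasn, which make and desaturate fatty acids, had log2 fold changes of -0.95, -1.53 and -1.15 and were not called (adjusted p = 0.169, 0.243 and 0.238, edgeR). Me1, which supplies NADPH to lipogenesis, had a log2 fold change of 0.02 in the same fit. No test of the difference between lists was made.

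**Figure D4:**
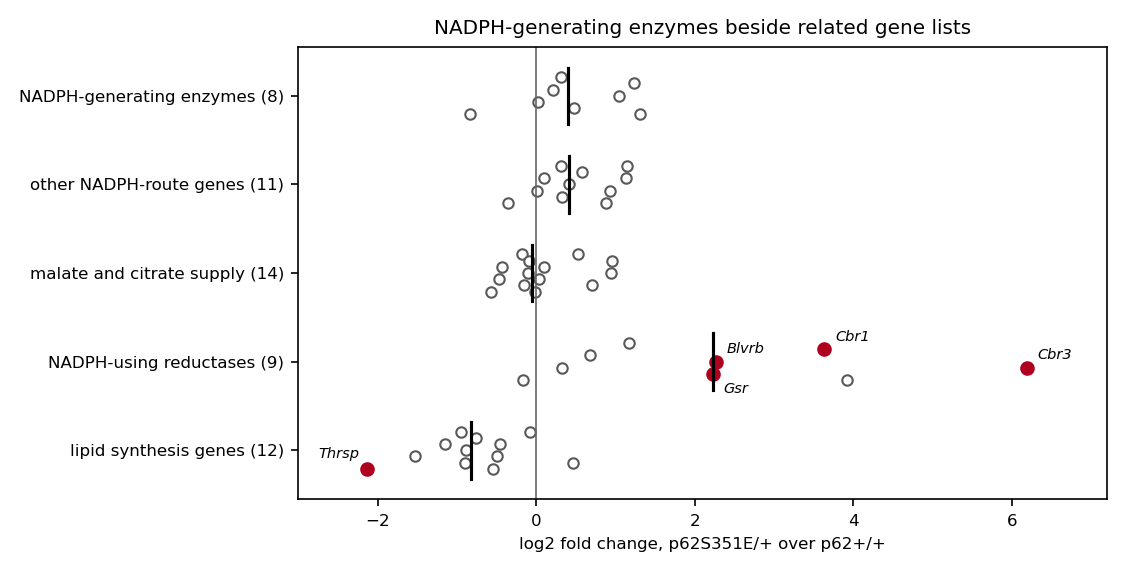
Log2 fold change of p62S351E/+ over p62+/+ mice (x axis) for the tested genes of each list (rows, number tested in brackets), filled red where called by edgeR, with the list's median as a black line. The enzymes that generate NADPH have a median of 0.40 and no red point, the reductases have 4 and the lipid synthesis list has 1; the position of Cbr3 depends on how its 2 counts in p62+/+ mice are smoothed.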

How the data were processed

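Liver RNA of the 6 mice was depleted of ribosomal RNA and sequenced as single-end reads. Per the submitters' processing notes, the authors trimmed reads with Trim Galore, mapped them to mm10 with STAR and estimated counts per gene with RSEM; versions and the gene annotation are not given in the sources used here. The deposited values are expected counts without normalization. All 60 values of the 10 members were whole numbers, while 6.45% of nonzero values in the table were not and were rounded for testing. The genotypes were compared with edgeR 4.0.16 (R 4.3.3; minimum count of 10 in filterByExpr, TMM factors, robust dispersions, quasi-likelihood test with legacy set to FALSE), with p adjusted by Benjamini-Hochberg over 5945 genes. A standard error is the size of a log2 fold change over the root of its F statistic. Alternatives used DESeq2 1.42.0, limma 3.58.1, other scalings, filters, thresholds and covariates, and subsets of mice. The tests were checked on simulated counts. The members and lists were chosen with earlier results of these data known. Named genes were all members, called genes of the other lists and up to 3 more per list with the lowest adjusted p. With 3 mice per genotype the lowest two-sided p of an exact permutation test is 0.1, so none is printed. The same-numbered mice are not stated to be related; mice of the same genotype differed beyond sampling noise (chi-square over its degrees of freedom, 1.80 to 6.11). Whether replicates differ in litter or sequencing batch is not given, so p-values measure the spread between these samples.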

Additional observations from a re-analysis of the deposited data

How the results depend on the processing

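The number of members called higher, 0 with edgeR, was 1 with DESeq2's default test, with its prior on fold changes, with no filter and with at least 10 counts in every library (Aldh1l1 each time), 2 with limma-voom, and from 0 to 2 with 1 mouse left out, the 2 being Aldh1l1 and H6pd without p62S351E/+ mouse 3. No alternative called a member lower. The members' median of 0.40 was 0.22 with at least 10 counts in every library, which left 5 members, and -0.28 with library size only, where the median of all genes was -0.68. The latter was -0.18 with DESeq2's default test and -0.16 with no filter, and relative to all genes the members' median stayed between 0.23 and 0.55. With library size only, Tkt (-0.35), Me1 (-0.55), Idh1 (-0.44) and Mthfd1 (-0.22) were below 0. Me1 was also below 0 with DESeq2 (-0.0016), its prior (-0.0013), its size factors (-0.00038), Rn45s, Lars2 and Mir6236 left out (-0.015), the replicate block (-0.017), without p62+/+ mouse 2 (-0.15) and without p62S351E/+ mouse 3 (-0.30, against up to 0.26 without p62S351E/+ mouse 2), and Idh1 with at least 10 counts in every library (-0.039), the brain-marker covariate (-0.0058) and without p62S351E/+ mouse 2 (-0.0045, against up to 0.50 without p62+/+ mouse 3); the cause was not tested.

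Against 4 higher and 1 lower gene of the related lists and 50 and 5 of all genes, library size only gave 2 and 0, and 12 and 2; an adjusted p below 0.01 gave 2 and 0, and 18 and 1; at least 10 counts in every library gave 2 and 2, and 29 lower of all genes. The related lists had 0 lower with DESeq2's default test, the replicate block, the Xist covariate and the brain-marker covariate. Over all genes, DESeq2's default test gave 8 lower, its prior 10, the legacy method 8, limma-voom 131 higher and 12 lower, no filter 79 and 10, the replicate block 18 and 1 (of the reductases it called 3, without Gsr), the Xist covariate 27 and 2, and the brain-marker covariate 31 higher. Leaving out 1 mouse gave from 2 to 11 higher and from 0 to 4 lower genes of the related lists, and from 16 to 329 higher and from 1 to 976 lower of all genes. The largest numbers came without p62S351E/+ mouse 3, where genotype cannot be told apart from brain transcripts. Without p62S351E/+ mice 1 and 2, an alternative added after the data had been seen, the related lists had 2 lower and all genes 23 lower; Aldh1l1 then had a log2 fold change of 0.83 (adjusted p = 0.0147, edgeR, with the lone mutant assumed to vary like the other group). Deviations of same-numbered mice correlated by between -0.085 and 0.071, so the replicate numbers were not taken as pairs. Low counts limit G6pdx, Rpia, Pgd and Me1 most.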

Other observations

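The counts of enzymes within the same library can be set against each other without any scaling between libraries. These ratios were chosen after the values were seen and carry no test. Among all 36 pairs of members without Rpia, with 1 added to each count, 15 ratios did not overlap between the genotypes. These included 6 of the 8 pairs with Taldo1, so a ratio without overlap was common. Counts of Taldo1 per count of Tkt, its partner in the non-oxidative pentose phosphate pathway, were 0.865, 0.821 and 0.871 in the p62+/+ mice, against 0.25, 0.556 and 0.348 in the p62S351E/+ mice. The p62+/+ mice differed little, and every mutant was lower. This order follows from the values given above, since Taldo1 was lower and Tkt higher in every mutant, and it adds no separate observation. Counts of Aldh1l1 per count of Mthfd1, which acts on the same folate pool, were 3.78, 3.14 and 3.96 in the p62+/+ mice, against 5.66, 7.86 and 5.29 in the p62S351E/+ mice. Counts of G6pdx per count of Pgd, the next dehydrogenase, were 0.65, 0.75 and 1.17 in the p62+/+ mice, against 0.0667, 0.25 and 0.632 in the p62S351E/+ mice, but rest on between 1 and 20 counts per gene and mouse. Ratios of Pgd to Tkt, of H6pd to Pgd and of Idh1 to Me1 overlapped between the genotypes.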
